A study of Mus musculus with 6 samples.

Results

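The cytochrome P450 enzymes of families 1, 2 and 3, with their electron donors and the receptors that switch them on, were followed in the livers of mice that lack Elovl6 in the liver. The members were all probes of the array, control spots and pseudogenes aside, whose accession maps to a gene named Cyp1, Cyp2 or Cyp3 plus a letter and a number, or to Por, Cyb5a, Nr1i2, Nr1i3 or Ahr. They were 63 genes with 77 probes, of 22911 named genes and 56605 probes in all. Of the 63 genes, 58 encode a P450, 2 an electron donor and 3 a receptor. The gene table held 65 genes under this rule, and Cyp2j12 and Cyp3a41b had no probe that could be assigned to them.

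Liver RNA of 6 male mice was measured, 1 mouse per one-colour Agilent array. LKO mice had a liver-specific knockout of Elovl6, the elongase that turns palmitate into stearate, and the 3 controls were labelled as floxed mice of control genotype (n = 3 per group). All 6 mice shared 14 days on a high-sucrose diet, followed by a 4 h fast before the liver was taken. The sources used here do not give the promoter that drove the recombinase, the strain or the ages. The groups therefore differ in Elovl6 under a lipogenic diet, and no group on another diet stands beside them.

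P450s are haem enzymes of the endoplasmic reticulum that insert an oxygen atom into lipophilic substrates. Each reaction needs electrons from NADPH, which the reductase Por delivers to all microsomal P450s and which cytochrome b5 can supplement. In hepatocytes, the nuclear receptors PXR (Nr1i2) and CAR (Nr1i3) sense foreign compounds and bile acids and raise the transcription of Cyp3a, Cyp2b and some Cyp2c genes. The aryl hydrocarbon receptor (Ahr) binds aromatic ligands and raises that of Cyp1 genes.

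The value of a probe in a mouse is given as its relative signal, the processed signal divided by the 75th percentile of that array. Differences are log2 of LKO minus log2 of control, with the standard error of limma's fit (n = 3 mice per group). The limma p-values set a difference against the spread between these mice, which limma moderates across all genes tested. Elovl6 checked the labels. Its relative signal was 21.3, 43.0 and 22.8 in controls and 0.228, 0.334 and 0.364 in LKO, so that it fell by 6.51 ± 0.30 on the log2 scale (limma, adjusted p = 0.00279). The arrays had 52.1% to 56.6% of spots well above background and no saturated spot. All 10 hepatocyte markers were measured on these arrays, with summed relative signals of 5468 to 5650 in controls and 5733 to 6100 in LKO. The groups did not overlap for 3 higher markers (Ambp, Fgb and Trf) and 1 lower (Ttr), against 8.11% and 9.21% of all genes. Alb differed by 0.01 ± 0.07, and Fgb is also among the acute phase genes below. Among the pancreas and gut markers, Prss1, Cpa1 and Lct were well above background on no array. In whole liver, fewer cells of a type and less RNA per cell cannot be told apart.

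No member passed the test, and most P450 RNAs lay close to their control level. Of the 63 members, 52 were tested, all of them well above background on all 6 arrays. With limma and Benjamini-Hochberg adjustment over 14171 genes, 0 of the 52 had an adjusted p under 0.05, against 0.0141% of all genes tested. At an unadjusted p under 0.05 there were 11 members, 7 higher and 4 lower in LKO, which is 21.2% of them against 11.2% of all genes tested (5.56% higher and 5.6% lower). The values of the groups did not overlap for 15 members, 11 higher and 4 lower, which is 28.8% against 17.3% of all genes. Of the tested members 35 were higher and 17 lower in LKO, with a median log2 difference of 0.07, and 50.8% of all genes had a difference above 0. For 48 members the 95% interval of the difference stayed within 2-fold in both directions, and for the other 4 (Por, Cyp1a1, Cyp2c70 and Cyp3a13) it did not.

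**Figure D1:**
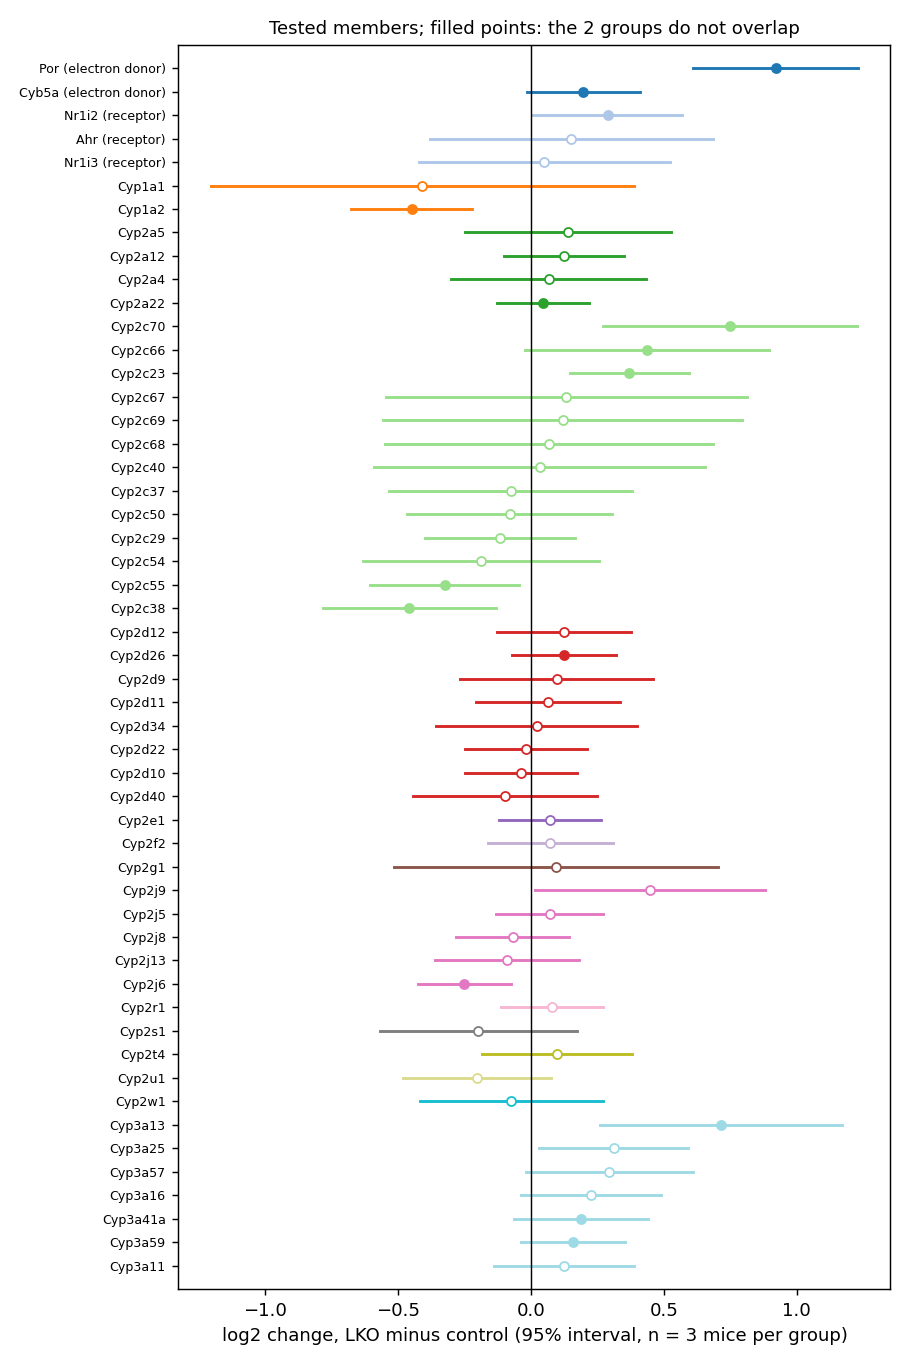
Log2 difference between LKO and control liver (x axis, mean of 3 LKO minus mean of 3 control mice) for each of the 52 tested members, with limma's 95% interval as a line and 1 colour per subfamily or role. Filled points are the 15 members whose groups do not overlap. Por lies farthest to the right, at 0.92, Cyp1a2 and Cyp2c38 lie near -0.45 with intervals below 0, and all 7 Cyp3a points lie right of 0.

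The electron donor Por had the smallest p of all members. Por is the flavoprotein that takes electrons from NADPH and hands them singly to every microsomal P450, and also to haem oxygenase and squalene monooxygenase. Its relative signal was 20.1, 16.2 and 16.2 in controls and 29.7, 32.3 and 37.3 in LKO. Every LKO liver was above every control liver. The difference was 0.92 ± 0.13 (95% interval 0.61 to 1.23), or 1.89-fold, with a limma adjusted p of 0.116. An exact two-sided permutation test gave p = 0.1, the smallest that 3 against 3 mice allow. Under normexp background correction (0.91, limma adjusted p = 0.0402) and with the trended, robust variance estimate (0.92, limma adjusted p = 0.0493) the call was made, and over all 16 alternatives the adjusted p ran up to 0.710. The lowest value, 0.77 ± 0.18, came from the mice that shared a slide column, LKO 1 against the 3 controls; the other LKO arrays lay in another column without controls.

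The window before the start of Por, chr5:135688895-135689144 on the plus strand (RefSeq, GRCm38.p6; the array files name the earlier build mm9), is shown because Por is the member with the clearest difference. Capitals mark the letters of the aryl hydrocarbon receptor core, GCGTG, on either strand (CACGC on the other).
Por: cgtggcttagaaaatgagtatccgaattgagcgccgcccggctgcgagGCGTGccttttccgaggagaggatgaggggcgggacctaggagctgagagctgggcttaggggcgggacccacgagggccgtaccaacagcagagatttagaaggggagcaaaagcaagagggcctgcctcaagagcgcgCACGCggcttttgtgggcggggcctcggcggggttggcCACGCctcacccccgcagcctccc
The core occurs 3 times in these 250 bases. It was found in 9 of the 54 members with such a window (16.7%) and in 28.2% of all 32851 promoter windows of the table, so it is no more common among the members. The match describes letters and not a bound site.

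The second donor, Cyb5a, encodes cytochrome b5, a small haem protein that passes electrons to some P450s and to the fatty acid desaturases. Its relative signal was 271.5, 240.2 and 273.2 in controls and 291.9, 310.9 and 295.8 in LKO. All LKO livers were above all controls, but by a small step. The difference was 0.20 ± 0.09, or 1.15-fold, and did not pass (limma, adjusted p = 0.485).

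Other proteins that transfer electrons beside the P450s were not higher as a group. Of 11 listed genes 10 were tested, 4 were higher and 6 lower, 0 passed, and the median was -0.05. Pgrmc2, a membrane haem-binding protein related to a P450 partner, had a relative signal of 2.40, 2.63 and 2.64 in controls and 1.79, 1.52 and 1.59 in LKO. Its groups did not overlap, and the difference was -0.65 ± 0.10, 1.57-fold lower (limma, adjusted p = 0.140). Cyb5b, the cytochrome b5 of the mitochondrial outer membrane, was at 8.34, 8.67 and 8.83 in controls and 7.28, 6.07 and 6.12 in LKO. Its groups did not overlap either, with -0.41 ± 0.10 (limma, adjusted p = 0.252). Cyb5r3, the reductase that feeds cytochrome b5 from NADH, is named here after its values were seen. It was at 193.7, 221.1 and 193.6 in controls and 164.7, 138.3 and 162.9 in LKO (-0.39 ± 0.11, limma adjusted p = 0.293). In the list as a whole the groups did not overlap for 3 lower genes and 1 higher gene, against 9.21% of all genes lower and 8.11% higher. The higher gene, Mtrr, a flavoprotein reductase related to Por and also named after its values were seen, lay between 0.246 and 0.299 in controls and between 0.303 and 0.337 in LKO (0.22 ± 0.11, limma adjusted p = 0.516).

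**Figure D2:**
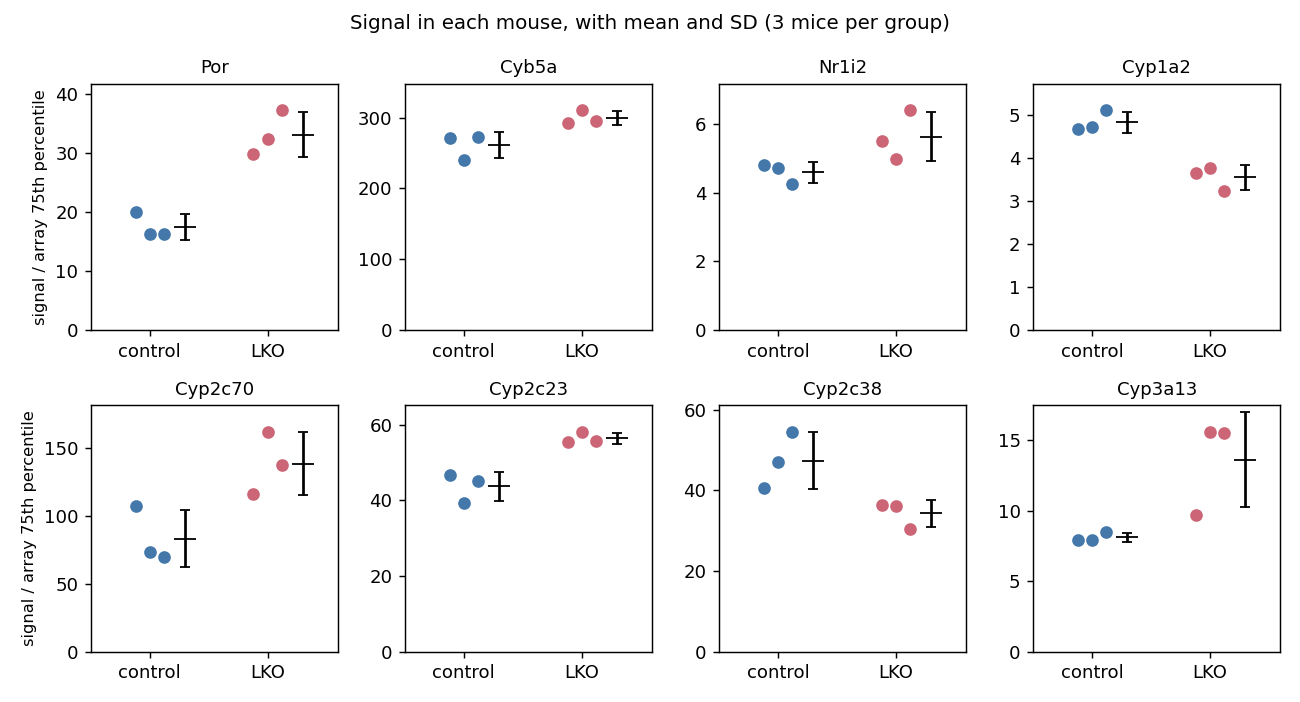
Relative signal (y axis, processed signal over the array's 75th percentile, each panel on its own scale from 0) of 8 members in 3 control (blue) and 3 LKO mice (red), with the mean and SD of each group beside the points. In all 8 panels the groups do not overlap, and Por shows 16.2 to 20.1 in controls against 29.7 to 37.3 in LKO.

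Among the receptors, PXR stood slightly higher and the others overlapped. Nr1i2, the PXR gene, had a relative signal of 4.81, 4.74 and 4.25 in controls and 5.52, 4.98 and 6.42 in LKO. The groups did not overlap, although control 1 and LKO 2 lay close together. The difference was 0.29 ± 0.12, or 1.22-fold (limma, adjusted p = 0.437). Nr1i3, the CAR gene, was at 2.95, 1.76 and 2.06 in controls and 2.55, 2.27 and 2.05 in LKO. The groups overlapped throughout, and the difference was 0.05 ± 0.20 with an interval of -0.42 to 0.52. Ahr was at 2.53, 3.40 and 2.38 in controls and 2.43, 2.83 and 4.08 in LKO. Only LKO 3 stood above the controls, and the difference was 0.15 ± 0.22 (limma, adjusted p = 0.843).

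The partners of the receptors showed no common direction. Of 14 tested partners 6 were higher and 8 lower, with 0 past the threshold and a median of -0.03. Rxra, which dimerizes with both PXR and CAR, was 1.22-fold higher without overlap (0.28 ± 0.09, limma adjusted p = 0.341). Foxa2, a liver transcription factor, was lower in LKO 2 and LKO 3 and within the controls in LKO 1 (-0.49 ± 0.26, limma adjusted p = 0.547).

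Both tested Cyp1a members were lower in LKO, neither past the threshold. Cyp1a2, which oxidizes caffeine and aromatic amines and is a pericentral enzyme, had a relative signal of 4.69, 4.73 and 5.13 in controls and 3.66, 3.77 and 3.23 in LKO. Each LKO liver was below each control. The difference was -0.45 ± 0.10 (95% interval -0.68 to -0.22), or 1.37-fold lower, with a limma adjusted p of 0.212. It lay between -0.49 and -0.38 over the alternatives, with adjusted p from 0.126 to 0.944, and at -0.40 ± 0.14 within the shared slide column. Cyp1a1, which oxidizes polycyclic aromatic hydrocarbons, was dim at 0.0908, 0.193 and 0.0769 in controls and 0.0849, 0.0728 and 0.0936 in LKO. The groups overlapped, and control 2 carried the difference of -0.41 ± 0.33, which was -0.0044 without that mouse. Cyp1b1 was well above background on 1 of 3 arrays in each group and was not tested.

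The window before the Cyp1a2 start, chr9:57683656-57683905 on the minus strand (RefSeq, GRCm38.p6), is shown because Cyp1a2 was the P450 with the smallest p. Capitals mark TATAAA, searched on both strands, whose first base lies 29 bases before the start.
Cyp1a2: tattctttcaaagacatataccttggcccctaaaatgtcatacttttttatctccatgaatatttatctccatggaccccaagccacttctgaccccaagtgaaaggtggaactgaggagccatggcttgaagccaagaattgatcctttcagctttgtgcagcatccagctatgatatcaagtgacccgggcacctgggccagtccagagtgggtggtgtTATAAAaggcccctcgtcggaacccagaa
The aryl hydrocarbon receptor core GCGTG was not in these 250 bases of Cyp1a2, whereas the windows of Cyp1a1 and Cyp1b1 held it. TATAAA was found in 24 of 54 members' windows (44.4%) and in 12.4% of all promoter windows. No match says only that the letters are not in this window.

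Other targets of the aryl hydrocarbon receptor overlapped between the groups, with none past the threshold. Of 5 tested genes 1 was higher and 4 were lower, with a median of -0.16, and 50.8% of all genes had a difference above 0. None of the 5 had an unadjusted p under 0.05 (limma). Ugt1a6a, a glucuronosyltransferase, differed by -0.29 ± 0.14 (limma, adjusted p = 0.517), and Aldh3a1, an aldehyde dehydrogenase, by -0.27 ± 0.19 (limma, adjusted p = 0.642). The groups overlapped for all 5. Ahrr, the receptor's repressor, was well above background on no array.

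The 4 Cyp2a members were near their control level. Cyp2a5, which hydroxylates coumarin and nicotine, was at 44.8, 60.8 and 69.0 in controls and 65.8, 60.7 and 63.0 in LKO. Control 1 was lowest and the other mice lay together, with a difference of 0.14 ± 0.16. Cyp2a4, a steroid hydroxylase nearly identical in sequence to Cyp2a5, was at 24.2, 32.3 and 35.8 in controls and 34.1, 30.3 and 31.3 in LKO (0.07 ± 0.15). Cyp2a12 differed by 0.13 ± 0.10. Cyp2a22 showed how little a lack of overlap can mean in size. Its controls lay at 6.95, 7.08 and 7.10 and its LKO mice at 7.25, 7.31 and 7.25, a 1.03-fold difference (limma, adjusted p = 0.860). The subfamily's median was 0.10, with a range of 0.05 to 0.14. Without control 1, 2 of the 4 genes were higher and 2 lower, and the median was -0.00051.

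No Cyp2b member could be tested. Cyp2b10 is the classic CAR target and is low in uninduced liver. It was well above background in 2 of 3 controls and 1 of 3 LKO mice, and Cyp2b9 in 1 control and no LKO mouse. Cyp2b13, Cyp2b19 and Cyp2b23 were well above background on no array, as were Cyp2ab1, Cyp2c65, Cyp2j11 and Cyp3a44.

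Targets of CAR and PXR outside the P450s were mixed. Of 20 listed genes 17 had a named probe and 16 were tested, with 7 higher, 9 lower, 0 past the threshold and a median of -0.13. Abcb1b, an efflux transporter, was dim and had a relative signal of 0.0583, 0.0531 and 0.0529 in controls and 0.116, 0.105 and 0.130 in LKO. All LKO mice were above all controls, but the probe was well above background on only 1 of 3 control arrays against 3 of 3 LKO arrays, so the fitted difference of 1.09 ± 0.10 (limma, adjusted p = 0.100) rests on controls near background. Gstt1, a glutathione transferase, lay between 106.0 and 129.1 in controls and between 81.7 and 93.5 in LKO, the reverse order (-0.44 ± 0.11, limma adjusted p = 0.252).

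Cyp2c, the largest subfamily, was the most divided. Of 15 genes 13 were tested, 7 were higher and 6 lower, and the median was 0.03 over a range of -0.46 to 0.75. The groups did not overlap for 5 of them, 3 higher and 2 lower, against 8.11% of all genes higher and 9.21% lower without overlap.

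Cyp2c70, the mouse enzyme that makes muricholic acid from chenodeoxycholic acid, stood highest in LKO. Its relative signal was 107.0, 73.1 and 69.3 in controls and 115.6, 161.6 and 137.4 in LKO. The groups did not overlap, but control 1 came close to LKO 1. The difference was 0.75 ± 0.20 (95% interval 0.27 to 1.23), or 1.68-fold, with a limma adjusted p of 0.278. LKO 1 alone against the controls of its slide column gave 0.50 ± 0.27. Cyp2c23, an arachidonic acid epoxygenase, was at 46.7, 39.4 and 45.1 in controls and 55.4, 58.1 and 55.7 in LKO. The LKO mice lay together above all controls (0.37 ± 0.09, 1.29-fold, limma adjusted p = 0.267). Its second probe gave 0.15 ± 0.10. Cyp2c66 was dim, between 0.0886 and 0.145 in controls and between 0.148 and 0.178 in LKO, also without overlap (0.44 ± 0.19, limma adjusted p = 0.466).

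Cyp2c38 stood lowest of the subfamily in LKO. This epoxygenase had a relative signal of 40.5, 47.1 and 54.5 in controls and 36.5, 36.0 and 30.5 in LKO. Every LKO liver was below every control. The difference was -0.46 ± 0.14, or 1.37-fold lower, with a limma adjusted p of 0.318, and it was -0.37 ± 0.20 within the shared slide column. Cyp2c55, which is dim in these livers, lay between 0.226 and 0.256 in controls and between 0.173 and 0.223 in LKO. Its groups did not overlap, and both of its probes were lower (-0.32 ± 0.12 and -0.77 ± 0.27; limma adjusted p = 0.395 for the first). Cyp2c39 was not tested, being well above background on 1 control array and no LKO array.

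The abundant epoxygenases Cyp2c29, Cyp2c37, Cyp2c50 and Cyp2c54 overlapped between the groups. Cyp2c29 was at 94.5, 80.9 and 93.3 in controls and 84.2, 91.5 and 72.8 in LKO (-0.12 ± 0.12). Cyp2c37 was at 79.1, 54.5 and 81.1 in controls and 75.3, 71.6 and 55.5 in LKO (-0.08 ± 0.19). Cyp2c54 and Cyp2c50 differed by -0.19 and -0.08. In all 4 the lowest control was control 2 and the lowest LKO mouse was LKO 3. The highest control was the same mouse in only 2 of the 4 genes, and the highest LKO mouse in 3. After subtraction of each probe's mean the genes were up to 0.25 apart, each with its own order of the 6 mice.

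In another set, Cyp2c40, Cyp2c67, Cyp2c68 and Cyp2c69, the spread between mice was larger than the difference between groups. Cyp2c67 was at 104.6, 49.7 and 59.8 in controls and 68.3, 91.8 and 65.4 in LKO. Control 1 was highest and control 2 lowest of all 6 mice, and the LKO mice lay between them. All 4 genes had control 1 and LKO 2 as the highest mice of their groups and control 2 and LKO 3 as the lowest. The highest control stood 1.97-fold to 2.10-fold above the lowest, while the LKO difference was 0.13 ± 0.28 for Cyp2c67, 0.12 ± 0.28 for Cyp2c69, 0.07 ± 0.26 for Cyp2c68 and 0.03 ± 0.26 for Cyp2c40. After subtraction of each probe's mean, the 4 genes were at most 0.13 apart (log2) in any mouse. These genes are near-identical copies, so which copy a probe measured is uncertain and their agreement is not independent evidence. Without control 1 the Cyp2c median was 0.32 instead of 0.03.

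Other close relatives also ran together across the mice once each probe's mean was subtracted, though not in every rank. These sets, like the Cyp2c sets above, were grouped after their values were seen, so their running together is not a test. Their agreement is not independent evidence either. Cyp2a4 and Cyp2a5 were at most 0.07 apart in any mouse, and Cyp3a25 and Cyp3a57, with the same order of all 6 mice, at most 0.06. Cyp3a11, Cyp3a16 and Cyp3a41a were at most 0.11 apart, and control 1 and LKO 3 were their highest mice in 3 of 3 genes. Their lowest mice, control 3 and LKO 2, were each shared by only 2 of 3. Cyp2d9, Cyp2d11, Cyp2d12 and Cyp2d34 were at most 0.22 apart, with control 2 and LKO 1 the highest mice in 4 of 4 genes. Their lowest mice, control 1 and LKO 2, were each shared by 3 of 4. The sets thus ranked the mice differently from each other.

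**Figure D3:**
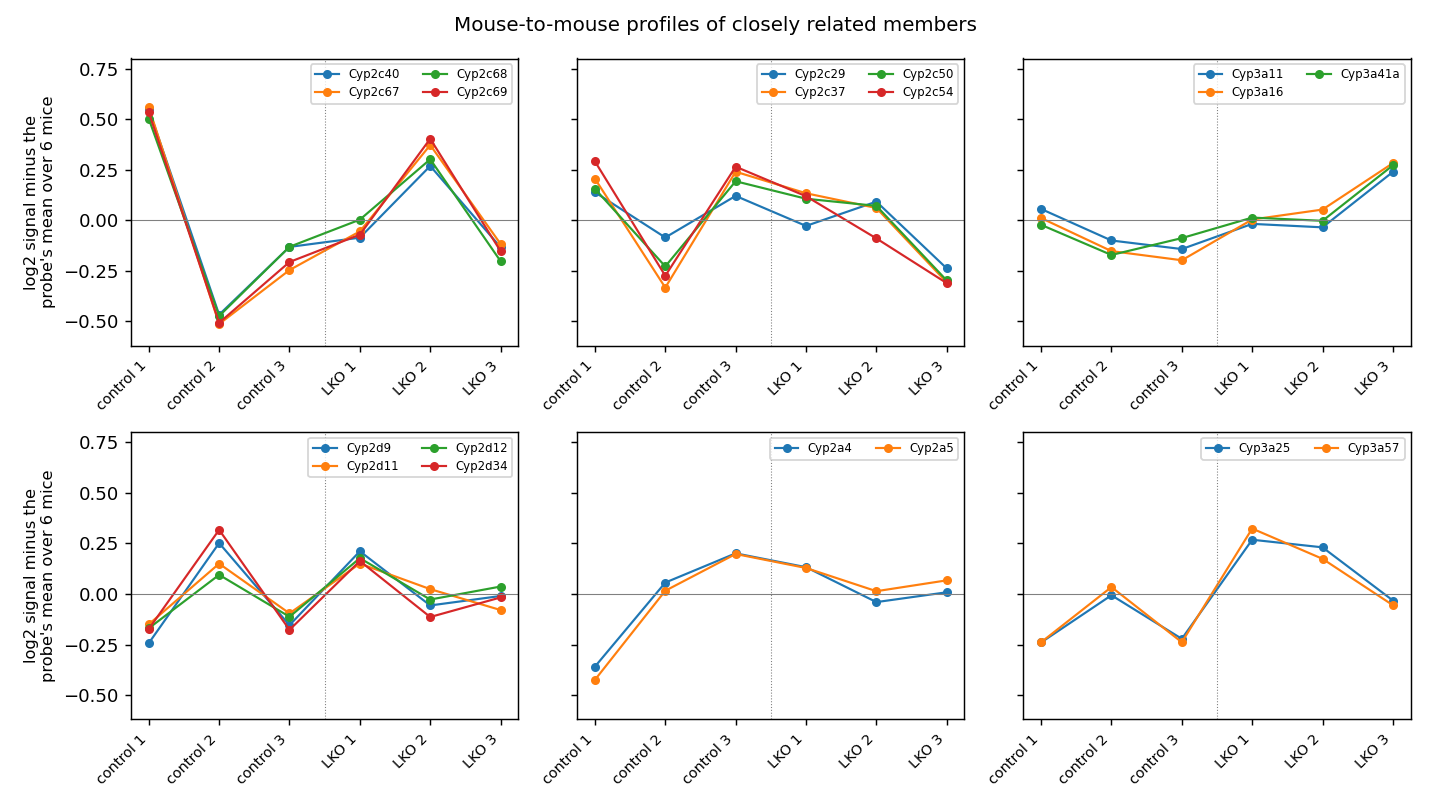
Log2 signal of each gene minus its own mean over 6 mice (y axis) in each mouse (x axis, controls left of the dotted line), in 6 sets of closely related members. Lines only link the points of 1 gene, since mice have no order. The genes of a set run together most closely for Cyp3a25 with Cyp3a57 and for Cyp2a4 with Cyp2a5. They do so least for Cyp2c29, Cyp2c37, Cyp2c50 and Cyp2c54, which are up to 0.25 apart. In the first set control 1 is the highest mouse.

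Promoter windows of some of these members are shown because genes of 2 such sets shared a motif. Cyp2c70, which is in none of the sets, is shown beside them, and its window held the motif too. Capitals mark CAAAGTCCA, a core that the nuclear receptor HNF4 recognizes, and TATAAA, each searched on both strands (TGGACTTTG and TTTATA on the other). The windows, all on the minus strand of GRCm38.p6 (RefSeq), are chr19:39649043-39649292 for Cyp2c67, chr19:39886770-39887019 for Cyp2c69, chr19:40187287-40187536 for Cyp2c70, chr5:145879855-145880104 for Cyp3a11 and chr5:145720137-145720386 for Cyp3a41a.
Cyp2c67: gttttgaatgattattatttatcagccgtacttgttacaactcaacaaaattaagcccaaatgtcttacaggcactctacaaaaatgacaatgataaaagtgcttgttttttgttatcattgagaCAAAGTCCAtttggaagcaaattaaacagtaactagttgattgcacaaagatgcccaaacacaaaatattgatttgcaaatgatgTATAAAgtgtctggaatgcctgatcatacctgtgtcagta
Cyp2c69: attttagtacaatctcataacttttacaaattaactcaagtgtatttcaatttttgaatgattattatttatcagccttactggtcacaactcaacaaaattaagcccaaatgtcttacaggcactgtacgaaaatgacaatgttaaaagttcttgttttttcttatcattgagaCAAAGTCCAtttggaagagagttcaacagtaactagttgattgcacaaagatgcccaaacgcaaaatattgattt
Cyp2c70: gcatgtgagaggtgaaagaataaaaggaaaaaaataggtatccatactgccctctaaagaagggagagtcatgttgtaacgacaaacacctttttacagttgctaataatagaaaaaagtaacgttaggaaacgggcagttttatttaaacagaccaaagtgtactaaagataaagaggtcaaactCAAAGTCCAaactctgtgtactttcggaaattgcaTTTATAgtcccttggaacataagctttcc
Cyp3a11: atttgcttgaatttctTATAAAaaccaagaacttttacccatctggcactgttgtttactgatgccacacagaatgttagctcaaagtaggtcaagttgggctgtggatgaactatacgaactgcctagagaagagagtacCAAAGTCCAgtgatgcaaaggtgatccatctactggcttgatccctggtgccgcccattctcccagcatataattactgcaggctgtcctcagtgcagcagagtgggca
Cyp3a41a: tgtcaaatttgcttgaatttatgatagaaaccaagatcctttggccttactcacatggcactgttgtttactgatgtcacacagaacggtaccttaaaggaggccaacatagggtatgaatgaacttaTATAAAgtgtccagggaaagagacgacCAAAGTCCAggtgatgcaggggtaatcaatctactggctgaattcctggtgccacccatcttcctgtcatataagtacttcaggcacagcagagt
The core CAAAGTCCA was in the windows of 9 of 54 members (16.7%) and in 0.384% of all 32851 windows. The 9 were Cyp2c40, Cyp2c65, Cyp2c67, Cyp2c68, Cyp2c69, Cyp2c70, Cyp3a11, Cyp3a16 and Cyp3a41a, which is 6 of 13 Cyp2c, 3 of 8 Cyp3a and 0 of 5 Cyp2d windows. Its first base lay 125 bases before the start in Cyp2c67, 75 in Cyp2c69, 64 in Cyp2c70, 109 in Cyp3a11 and 95 in Cyp3a41a. The windows of close copies are themselves related in sequence, and a match describes letters only.

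The Cyp2d members, which include the steroid hydroxylase Cyp2d9, were flat. Of 8 tested genes 5 were higher and 3 lower, with a median of 0.04 and a range of -0.10 to 0.12. Cyp2d26 was at 382.6, 368.2 and 370.4 in controls and 394.4, 433.9 and 394.4 in LKO, without overlap but only 1.09-fold apart (limma, adjusted p = 0.627). Cyp2d9 was at 65.2, 91.9 and 69.3 in controls and 89.3, 74.2 and 76.6 in LKO, with overlap. Cyp2d12 differed by 0.12 ± 0.11 and Cyp2d40 by -0.10 ± 0.15.

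The single-gene subfamilies of Cyp2 lay around their control level. Cyp2e1, the enzyme of ethanol and acetone, was at 560.8, 522.2 and 542.0 in controls and 581.1, 583.3 and 543.3 in LKO. The groups overlapped, and the difference was 0.07 ± 0.08 with a 95% interval of -0.12 to 0.26. It was -0.016 after quantile normalization, and -0.0096 on its second probe. Cyp2f2, which activates naphthalene and is a periportal enzyme, differed by 0.07 ± 0.10 with an interval of -0.16 to 0.31, and by -0.014 after quantile normalization. Cyp2r1, a vitamin D hydroxylase, differed by 0.08 ± 0.08 and Cyp2u1, a fatty acid hydroxylase, by -0.20 ± 0.12. Cyp2g1 (0.09), Cyp2t4 (0.10), Cyp2s1 (-0.20) and Cyp2w1 (-0.07) also overlapped between groups, all of them dim probes with relative signals under 1.

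Cyp2j members, which oxidize arachidonic acid, differed in direction among themselves, none past the threshold. Cyp2j6 was the tightest of them, at 2.73, 2.73 and 2.75 in controls and 2.34, 2.29 and 2.27 in LKO. The groups were clearly separate but only 1.19-fold apart (-0.25 ± 0.07, limma adjusted p = 0.310). Its second probe was lower as well, by -0.35 ± 0.10. Cyp2j9 lay on the other side, at 0.570, 0.718 and 0.662 in controls and 1.08, 0.687 and 0.926 in LKO. LKO 2 fell among the controls, so the groups overlapped (0.45 ± 0.18, 1.36-fold, limma adjusted p = 0.436). Cyp2j5 differed by 0.07 ± 0.08, with its other probe at -0.08, and the median over 5 tested members was -0.07.

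All 7 tested Cyp3a members were higher in LKO, none past the threshold. Cyp3a enzymes hydroxylate steroids, bile acids and many drugs, and Cyp3a11 is a standard PXR target. The median log2 difference was 0.23, with a range of 0.12 to 0.72, and the groups did not overlap for 3 of the 7, against 8.11% of all genes higher without overlap. The other 40 tested P450 genes had 23 higher, 17 lower and a median of 0.05. All 7 were also higher without any single mouse, with medians of 0.18 to 0.26, and with slide column in the model, with a median of 0.15. No test of a difference between subfamilies was made. Some of these genes are close copies, and whether their probes share signal was not tested, since probe sequences were not used here.

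Cyp3a13 stood out in the subfamily. Its relative signal was 7.93, 7.92 and 8.47 in controls and 9.72, 15.6 and 15.5 in LKO. The controls were tight, LKO 1 was just above them, and LKO 2 and LKO 3 were far above. The difference was 0.72 ± 0.19, or 1.64-fold (limma, adjusted p = 0.278). LKO 1 against the controls of the same slide column gave 0.26 ± 0.12, and without LKO 1 the difference was 0.94 (limma, adjusted p = 0.0615). Slide column and mouse cannot be told apart here.

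Cyp3a25 was at 19.9, 23.4 and 20.1 in controls and 28.3, 27.5 and 23.0 in LKO. LKO 3 fell just under control 2, so the groups overlapped (0.31 ± 0.12, limma adjusted p = 0.415). Cyp3a57 ran in parallel, at 11.2, 13.5 and 11.2 in controls and 16.5, 14.9 and 12.7 in LKO (limma, adjusted p = 0.479). Cyp3a41a, a female-biased gene, was at 59.8, 53.9 and 57.1 in controls and 61.3, 60.6 and 73.3 in LKO. The groups did not overlap, by a narrow margin (0.19 ± 0.11, limma adjusted p = 0.569). Cyp3a11 was at 11.8, 10.6 and 10.3 in controls and 11.2, 11.1 and 13.4 in LKO, with overlap and a difference of 0.12 ± 0.11. Cyp3a16 (0.23 ± 0.11) overlapped and Cyp3a59 (0.16 ± 0.08) did not.

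**Figure D4:**
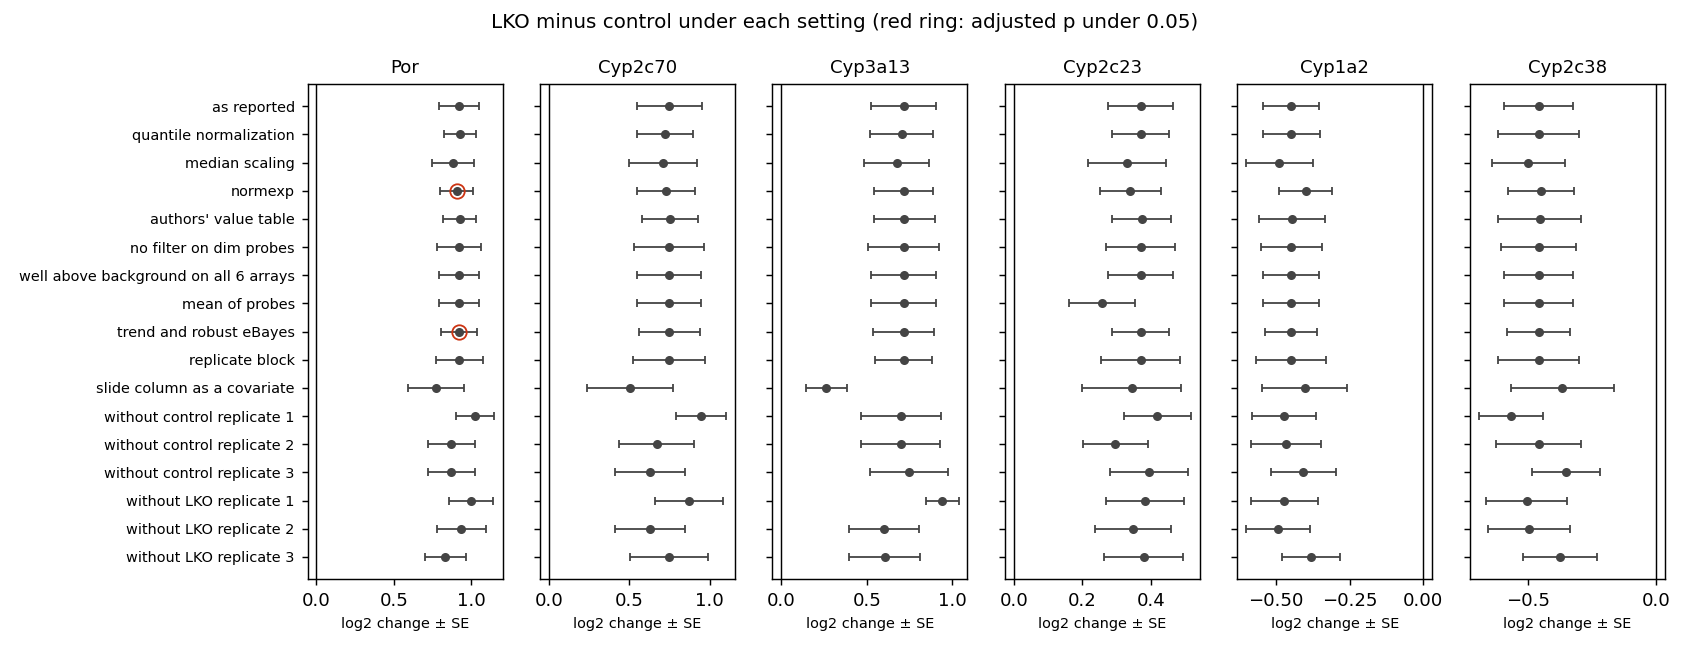
Log2 difference between LKO and control with its SE (x axis) for 6 members under the reported setting and each of 16 alternatives (y axis). No value crosses 0; a red ring marks an adjusted p under 0.05, which only Por reached, with normexp and with the trended, robust variance estimate, and Cyp3a13 has its lowest value, 0.26, with the slide column as a covariate.

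Members can also be grouped by the place or sex in which they are known to be high. Of 7 pericentral members 2 were higher and 5 lower in LKO, with a median of -0.08 and Cyp1a2 the only one without overlap. Of 11 genes listed as female-biased 10 were on the array and 5 were tested, Cyp2a4, Cyp2c40, Cyp2c69, Cyp3a16 and Cyp3a41a. Their probes were well above background in all 6 male livers, and all 5 were higher in LKO, with a median of 0.12 and 0 past the threshold. Of all genes, 50.8% had a difference above 0. All 5 belong to the sets of close relatives above, so which copy a probe measured is uncertain. The probe signals therefore do not establish that these female-biased copies were expressed in the males, and the 5 directions are not independent. The direction of 3 of them turned under at least 1 alternative, with lowest values of -0.10 for Cyp2a4, -0.19 for Cyp2c40 and -0.10 for Cyp2c69, each difference being smaller than its SE. Haem, the cofactor of every P450, is made and broken down by 12 measured genes, of which 7 were higher and 5 lower with a median of 0.03 and 0 past the threshold. Ppox, of haem synthesis, differed by -0.17 ± 0.10 and Blvra, of haem breakdown, by 0.13 ± 0.08. Alas1, also of haem synthesis, is named after its values were seen. It ranged from 21.0 to 137.4 in controls and from 20.2 to 123.9 in LKO (0.32 ± 0.88, 95% interval -1.77 to 2.40).

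Acute phase genes and some immune cell markers were higher in LKO. All 21 acute phase genes were higher in LKO with 0 past the threshold and a median of 0.80. An unadjusted p under 0.05 (limma) was reached by 18 of the 21, against 5.56% of all genes tested in that direction. With the slide column as a covariate 20 were higher and 1 lower, and the median was 0.32. Their summed relative signals were 2897 to 3399 in controls and 4615 to 6760 in LKO, and the leading genes were Saa2 (3.48 ± 0.38) and Saa1 (3.28 ± 0.40), each with a limma adjusted p of 0.100. By mouse, their median deviation from the control mean was 0.32 in LKO 1, 0.87 in LKO 2 and 1.19 in LKO 3. LKO 1 was also nearest the controls for Por, Cyp2c70 and Cyp3a13, while LKO 2 was nearest for Cyp1a2 and Nr1i2. LKO 1 was the only LKO array in the controls' slide column, and slide column and mouse cannot be told apart. All 12 Kupffer cell and macrophage markers were higher, with a median of 0.22 and summed signals of 99.2 to 136.8 in controls and 122.3 to 148.5 in LKO. The groups did not overlap for 2 of the 12, Lyz2 and Marco, against 8.11% of all genes higher without overlap. Of 6 tested neutrophil markers, S100a8 (2.43), S100a9 (2.21) and Retnlg (1.23) were higher without overlap, against the same 8.11% of all genes. Elane, Camp and Csf3r overlapped at -0.19 to 0.18, and none of the 6 neutrophil markers passed. Their summed signals, mostly from Csf3r, were 68.6 to 79.6 in controls and 74.1 to 86.6 in LKO, and Mpo, Ngp and Cxcr2 were well above background on no array. The part of these genes in the differences of Por, Cyp1a2, Cyp2c70 and Cyp3a13 was not tested.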

How the data were processed

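Liver RNA was labelled with Cy3 and hybridized to one-colour arrays, per the labels' protocols. The deposited files came from Agilent Feature Extraction 11.5.1.1, per the submitters' processing notes. The deposited processed signals are background-corrected intensities, and the deposited flags for background, saturation and outliers are other values set by that software. The authors' value table is the same intensity times a constant per array, between 2.08 and 2.48.

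Each processed signal was divided by its array's 75th percentile (265 to 298 signal units) and taken to log2. Control spots and outlier spots were left out. Probes were named by accession through a RefSeq table (GRCm38.p6), which gave 58.3% of them 1 symbol, and a gene was its probe with the highest mean. Several probes above background were available for 9 members, and 3 of these (Cyp2e1, Cyp2j13 and Cyp2j5) differed in direction between probes. Genes well above background on all 3 arrays of a group were tested two-sided in R 4.3.3 with limma 3.58.1 (lmFit, then eBayes), with Benjamini-Hochberg adjustment over 14171 genes at a threshold of 0.05. The fit was tested on simulated data. Precision is limited by the number of arrays, 3 per group.

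The members, gene lists and tests were chosen with earlier results of these data known. Named were Elovl6, donors and receptors, the 3 members per subfamily with the smallest p, members without overlap and a log2 difference of at least 0.5, and the 2 genes of each other list with the smallest p; any others were added after their values were seen. Other values of members describe the subfamilies. The alternatives tried were the authors' value table, normexp (offset 50), quantile normalization and median scaling, other filters, the mean of probes, a trended and robust variance estimate, a replicate block, the slide column as a covariate, and leaving out each mouse. Promoter windows are the 250 bases before the first listed start.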

Additional observations from a re-analysis of the deposited data

How the results depend on the processing

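Genes past the threshold numbered 2, and 16 with normexp, 13 with the trended, robust variance estimate, 1 without a filter on dim probes, 1 with probes well above background on all 6 arrays, 1 with slide column in the model, and 1 to 9 without single mice (9 without LKO 1). Members past the threshold numbered 0, and 1 (Por) with normexp and with the trended, robust estimate, and 0 without any single mouse. The median over members was 0.033 with median scaling. With the slide column, the Cyp2j median was 0.042 and the Cyp3a median 0.15. Without single mice the Cyp2c median ran from -0.19 to 0.32, the Cyp2a median from -0.00051 to 0.15 and the Cyp2d median from -0.022 to 0.13. Of 30 named members 21 kept their sign under all 16 alternatives, some of which alter only the variance or the genes tested. The other 9, none called, crossed 0: with quantile normalization Cyp2e1 (-0.016) and Cyp2f2 (-0.014), with the mean of probes Cyp2j5 (-0.0049), with the slide column Ahr (-0.17) and Cyp2w1 (0.018), and without single mice Ahr (-0.060 to 0.31), Cyp2w1 (-0.16 to 0.054, and 0.0021 without control 1), Cyp2a5 (-0.037 to 0.27), Cyp2g1 (-0.16 to 0.25), Cyp2d40 (-0.20 to 0.022) and Nr1i3 (-0.11 to 0.26). The causes were not tested. Same-numbered mice did not deviate together (correlations 0.04, -0.05 and -0.07). Only control 1 correlated best with its own number, and the largest correlation, 0.16, was between control 2 and LKO 3. With 3 mice per group, such small correlations cannot decide whether the numbers pair the mice. With the replicate block 3 genes and 0 members passed, and Por had a limma adjusted p of 0.228. The 3 mice per group and the dim Cyp1a1, Cyp2b and Cyp2g1 probes limit what can be read.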

Other observations

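Among the Cyp2b genes that were too dim to test, 1 control mouse stood apart. Cyp2b10, the classic target of CAR, had a relative signal of 0.478 in control 3, 0.0716 in control 1 and 0.0252 in control 2, and of 0.0638, 0.0172 and 0.0124 in LKO. Cyp2b9, a female-biased relative, had 0.512 in control 3, 0.0630 in control 1 and 0.0173 in control 2, and at most 0.0345 in LKO. The second probe of Cyp2b10 was well above background on no array, with 0.0133 in control 3, and Nr1i3 in that mouse, at 2.06, lay between the other controls. These genes were noticed after their values were seen, and the difference of 1 mouse has no replicate.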
